A study of Vitis rotundifolia with 36 samples.

Results

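The outer flesh of mature Supreme muscadine berries, layer 3, was compared with the innermost flesh, layer 4, by RNA sequencing of 3 libraries from each layer. The 6 libraries are those titled Supreme, layer 3 and Supreme, layer 4, out of 36 libraries from 3 cultivars (Alachua, Granny Val and Supreme), 4 layers and 3 replicates of each combination. Muscadine (Vitis rotundifolia, or Muscadinia rotundifolia) is a grape of the south-eastern United States with a leathery skin, and Supreme is a purple cultivar that the labels describe as thin-skinned. Nothing was applied to the berries, and layers were counted from the outside inwards. Nothing in the labels states that the replicates of a layer are separate vines, harvests or extractions, so the spread behind each p-value may be technical. The dissection protocol names layer 3 mesocarp and layer 4 endocarp. The sample tags name them endocarp and seed, and every sample also carries the tissue tag peel, so layer numbers are used.

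In a grape berry the mesocarp is the fleshy part, built of large vacuolate cells that store sugars and organic acids, and the endocarp is the tissue that lies against the seeds. Anthocyanins, the pigments of purple cultivars, are held mainly in the skin in most grapes. The gene models in the files have identifiers only, and 0 of 26394 matched the reference gene table, which comes from the cultivar Carlos, so no tissue marker, pathway or product could be looked up and no sequence is shown. The labelled tissues were therefore checked only against gene models that set skin apart from flesh in another cultivar, described further on.

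Totals of counts assigned to gene models were 61533809, 45523243 and 45299252 in layer 3 replicates 1 to 3, against 46477642, 61782400 and 53475902 in layer 4 replicates 1 to 3. Over all 36 libraries the totals lay between 19057538 and 61782400. In a single one of the 6, a count of 0 allows up to 3 counts, which is between 0.0486 and 0.0662 CPM (counts scaled by the library total in the usual way), for counting error only. An earlier scoring of the libraries on gene models that separate the layers in Granny Val had placed 6 of the 36 nearest a layer other than their label, and 0 of those are among the 6 libraries compared here. That scoring is no check of layer 3 against layer 4, between which no gene model was called in Granny Val. Among the 6, layer 3 replicate 1 correlated more closely with the mean of layer 4 (r = 0.982) than with that of its own layer (r = 0.956), and layer 4 replicate 1 more closely with layer 3 (r = 0.955) than with its own (r = 0.930). Layer 3 replicate 3 was level between the layers, at 0.953 with layer 4 and 0.952 with its own. An exchange of the labels of the first pair would bring layer into step with the kind of library name described further on, and the data cannot tell these apart, so the main counts are also given without both libraries.

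No gene model passed the test of layer 3 against layer 4 in Supreme. Of 19241 gene models tested with edgeR's quasi-likelihood F test, 0 (0%) were called, that is, had a Benjamini-Hochberg adjusted p under 0.05 and a change of at least 2-fold. The lowest adjusted p was 1, and 330 gene models (1.72%) had an unadjusted p under 0.05. A share of 0.05 is what this threshold gives on average where nothing differs. The share seen was lower, for a reason that was not tested, so counts of unadjusted p are given as descriptions only. Without layer 3 replicate 1 and layer 4 replicate 1, 12 of 19754 gene models (0.0607%) were called, 11 higher in layer 3 and 1 lower, and 1772 had an unadjusted p under 0.05. In the 4 libraries left, layer and kind of library name coincide and cannot be told apart. With DESeq2 and all 6 libraries, 99 gene models (0.515%) were called, 48 higher in layer 3 and 51 lower. Of those 99, 95 had 0 counts in every library of the other layer, and in 72 a single library held more than 90% of the counts of the higher layer. Only 4 of the 99 had a median of at least 1 CPM in the higher layer.

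The fitted differences were small for most gene models. The median log2 fold change of layer 3 over layer 4 was -0.016, and the middle of the distribution, between its 25% and 75% quantiles, ran from -0.35 to 0.29. At least 2-fold differences were fitted for 3508 gene models (18.2%), 1711 higher in layer 3 and 1797 lower, and most of them had low counts. Among the 9458 gene models with a mean of at least 10 CPM in the higher layer, 313 differed by at least 2-fold. In 77 of the 9458 (0.814%) the 3 libraries of one layer also all lay above the 3 of the other, 48 higher in layer 3 and 29 lower. Over all gene models tested, 472 (2.45%) met both conditions, 247 higher and 225 lower.

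**Figure D1:**
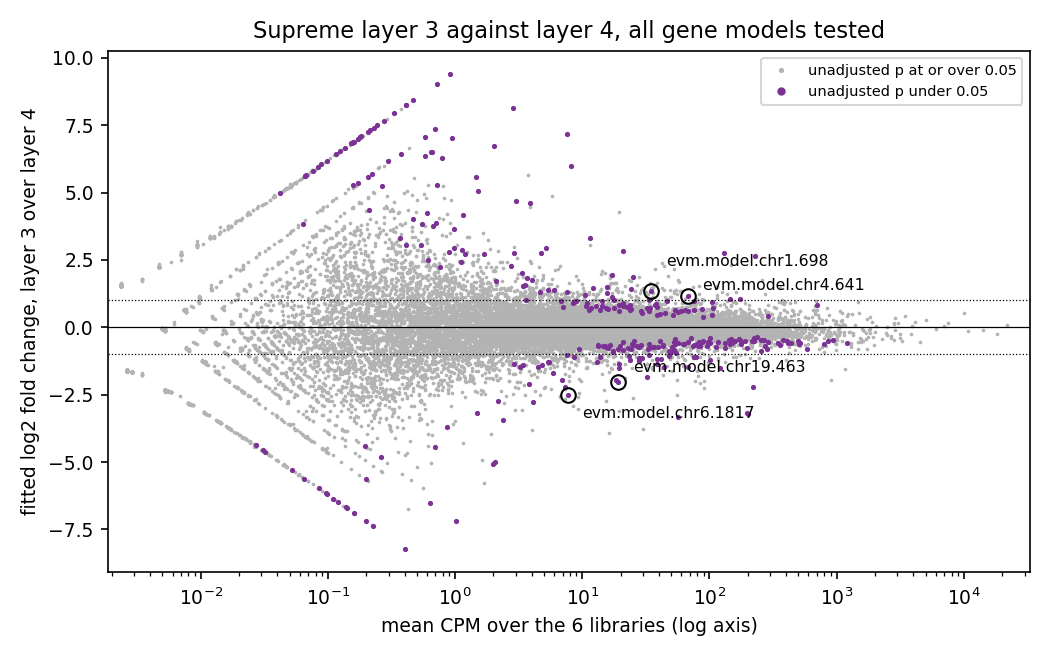
Fitted log2 fold change of layer 3 over layer 4 of Supreme (vertical axis) against the mean CPM over the 6 libraries (horizontal log axis), 1 point per gene model; 502 gene models without counts in the 6 libraries are not drawn, dotted lines mark 2-fold and circles mark the 4 named gene models. The points narrow around 0 as the level rises, and the 330 with an unadjusted p under 0.05 lie on both sides of 0.

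The precision set what could be seen. The edgeR test gives no standard error, so each SE here is the absolute log2 fold change over the square root of its F statistic. The 95% intervals are built from that SE, are approximate and are not adjusted for the number of gene models tested. The median SE of the log2 fold change was 0.62 over the gene models tested and 0.34 over the 9458 with at least 10 CPM. For these the 95% interval reached a median of 0.70 to either side, equal to a 1.62-fold change, and 5279 of them (55.8%) had an interval that lay wholly within 2-fold either way. For the other gene models the interval reached 2-fold or beyond in at least 1 direction.

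The most abundant transcripts were largely shared by the layers. Of the 100 gene models with the highest mean CPM in each layer, 87 were the same, and the 113 gene models in either set took 26.2, 28.6 and 29.8% of the counts in layer 3 and 31.1, 26.7 and 28.5% in layer 4. Their log2 fold changes ran from -1.95 to 0.98, with 0 higher and 2 lower by at least 2-fold and a lowest adjusted p of 1. At the other end, 7 gene models had counts in all 3 layer 3 libraries and none in layer 4, with a highest mean of 1.00 CPM, and 11 had counts in all 3 layer 4 libraries and none in layer 3, with a highest mean of 0.413 CPM. Gene models with counts in all 6 libraries numbered 14449. The median log2 fold change per chromosome lay between -0.060 (chromosome 12) and 0.026 (chromosome 8).

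Because nothing was called, the gene models named here are those with the smallest unadjusted p among the ones at least 2-fold apart with at least 10 CPM in the higher layer, and none passed the test. Gene model evm.model.chr1.698 on chromosome 1 had 48.2, 65.0 and 37.2 CPM in layer 3, against 28.6, 15.4 and 14.5 CPM in layer 4. Its log2 fold change was 1.36 (SE 0.50, 95% interval 0.33 to 2.39, unadjusted p = 0.0116, adjusted p = 1 by edgeR). Every layer 3 library lay above every layer 4 library. In the skin of Supreme this gene model was at 10.1, 17.6 and 8.10 CPM in layer 1 and 16.8, 9.65 and 8.60 CPM in layer 2, so that layer 4 reached down to the levels of the skin and layer 3 did not. Gene model evm.model.chr4.641 on chromosome 4 had 59.3, 86.3 and 133.7 CPM in layer 3, against 47.7, 23.6 and 53.4 CPM in layer 4. The log2 fold change was 1.16 (SE 0.44). Its layers did not overlap, with layer 3 replicate 1 and layer 4 replicate 3 close to each other, and leaving out any single library gave a log2 fold change between 0.80 and 1.40.

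Lower in layer 3 was evm.model.chr19.463 on chromosome 19, with 11.5, 5.37 and 5.86 CPM in layer 3 and 14.8, 43.0 and 35.1 CPM in layer 4. Its log2 fold change was -2.03 (SE 0.54, unadjusted p = 0.000746, adjusted p = 1 by edgeR). Layer 3 replicate 1 was the highest of its layer and layer 4 replicate 1 the lowest of its own, and the layers did not overlap. Gene model evm.model.chr6.1817 on chromosome 6 followed the same order of libraries, with 3.65, 1.16 and 2.02 CPM in layer 3 and 7.30, 19.6 and 12.3 CPM in layer 4, and its log2 fold change was -2.52 (SE 0.67). Both gene models were called by DESeq2 (adjusted p = 0.0276 for evm.model.chr19.463 and 0.0181 for evm.model.chr6.1817). Since these gene models were taken for their small p, that their layers do not overlap adds nothing to the count given above.

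**Figure D2:**
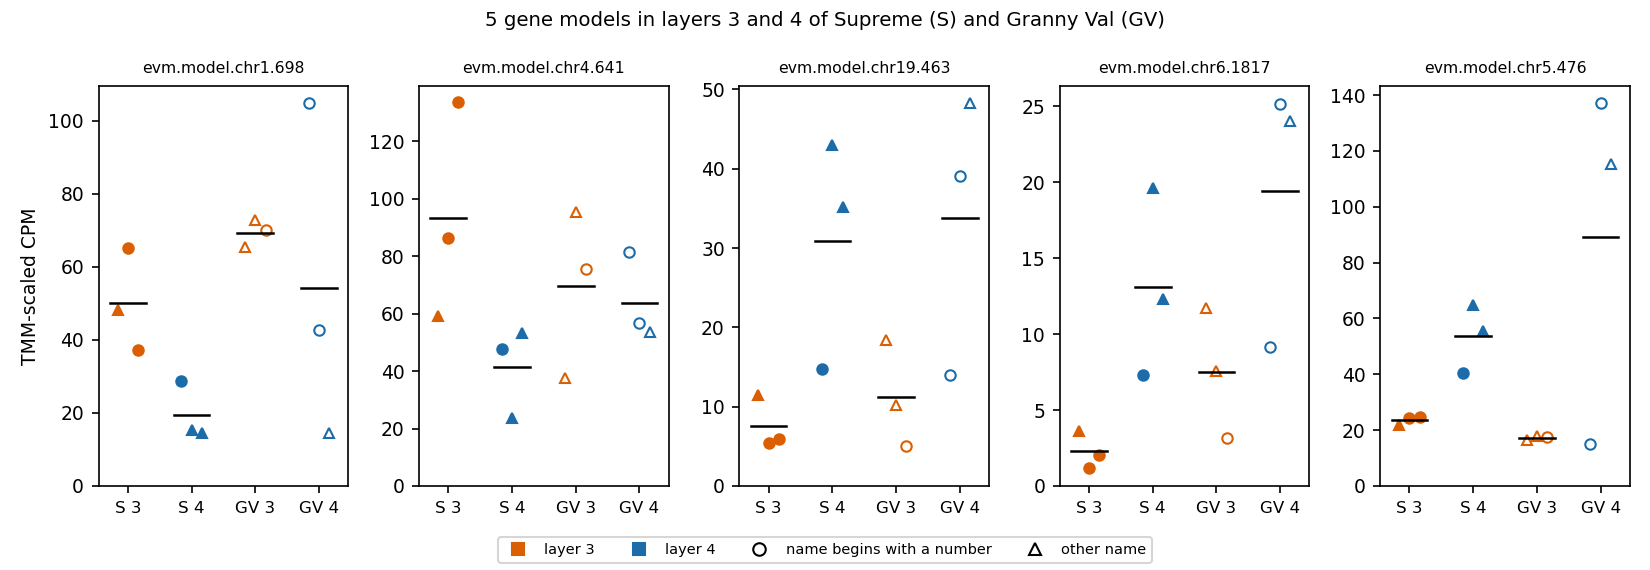
TMM-scaled CPM of 5 gene models (panels, each with its own vertical axis from 0) in layers 3 and 4 of Supreme (S, filled) and Granny Val (GV, open); points are libraries, bars are means, circles are numbered library names and triangles other names. The layers do not overlap in Supreme, for which the first 4 were chosen, and overlap in Granny Val; the difference between the cultivars did not pass the test for any of the 5 (adjusted p = 0.9999 by edgeR).

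The same pair of layers was read in the other cultivars, in separate libraries. In Granny Val, a green cultivar of intermediate skin, 0 of 19241 gene models (0%) were called by edgeR, 476 (2.47%) had an unadjusted p under 0.05, and DESeq2 called 118, 22 higher in layer 3 and 96 lower. The 476 became 778 without layer 4 replicate 1, where 2 gene models were called, and 181 without layer 4 replicate 2. In Alachua, a thick-skinned purple cultivar, 4 (0.0208%) were called, all higher in layer 3, 1779 (9.25%) had an unadjusted p under 0.05, and DESeq2 called 540, 525 higher and 15 lower. Of the 3 Alachua layer 4 libraries, 2 are among the 6 placed nearest another layer, and without those 6 libraries, which leaves 1 library in that layer, 0 were called and 712 had an unadjusted p under 0.05. The Alachua count was 1 without layer 3 replicate 2, 9 without layer 4 replicate 1, 1 without layer 4 replicate 2 and 2 without layer 4 replicate 3. Of the 176 gene models (0.915%) that in Supreme differed by at least 2-fold with an unadjusted p under 0.05, 95 had the same sign in Granny Val and 97 in Alachua. Of the 18739 gene models tested that had counts in the 6 libraries, 9718 had the same sign in Granny Val and 9795 in Alachua. The correlation of the differences between layers 3 and 4 across gene models was 0.076 between Supreme and Granny Val and 0.082 between Supreme and Alachua, and 0.118 and 0.214 over the 9101 gene models with a mean of at least 10 CPM in the 6 libraries. Gene models are not independent replicates, so these correlations are descriptions. The kinds of library name are spread unequally over the layers, with numbered names for 2 libraries in layer 3 and 1 in layer 4 of Supreme, 1 and 2 in Granny Val and 2 and 3 in Alachua. With the kind of name as a covariate, 0 gene models were called in Supreme, 0 in Granny Val and 2 in Alachua, with 403, 667 and 2086 at an unadjusted p under 0.05, and the correlations by kind of name are given further on.

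Gene model evm.model.chr19.463 had 18.4, 10.2 and 5.08 CPM in layer 3 of Granny Val and 14.1, 39.1 and 48.3 CPM in layer 4, with a log2 fold change of -1.59 (SE 0.53), and the log2 fold change in Alachua was -0.93 (SE 0.52). Neither passed the test. The lowest adjusted p in Granny Val, 0.471 by edgeR, belonged to evm.model.chr5.476 on chromosome 5. In Supreme this gene model had 21.9, 24.3 and 24.6 CPM in layer 3 and 40.4, 64.9 and 55.4 CPM in layer 4. The log2 fold change was -1.18 (SE 0.45, unadjusted p = 0.0141, adjusted p = 1 by edgeR). In Granny Val it had 17.3 ± 0.792 CPM in layer 3 (SD, n = 3) and 15.0, 137 and 115 CPM in layer 4, where replicate 1 lay below all 3 layer 3 libraries. In Alachua it had 9.89, 22.7 and 12.2 CPM in layer 3 and 44.2, 36.3 and 21.1 CPM in layer 4, with a log2 fold change of -1.18 (SE 0.45). The mean was lower in layer 3 in all 3 cultivars, and in none did the difference pass edgeR's test with all libraries. In Granny Val evm.model.chr5.476 was called by DESeq2 (adjusted p = 5.8e-05), and by edgeR without layer 4 replicate 1 (log2 fold change -2.86).

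The difference between cultivars was also tested directly, as the layer difference in Supreme minus that in the other cultivar. Against Granny Val 0 of 19241 gene models (0%) were called by edgeR, with 360 (1.87%) at an unadjusted p under 0.05 and 122 called by DESeq2. Among gene models with at least a 2-fold difference between the cultivars and at least 10 CPM on the higher side, evm.model.chr5.247 on chromosome 5 had the smallest p. In Supreme it had 160, 128 and 136 CPM in layer 3 and 177, 261 and 208 CPM in layer 4. In Granny Val it had 175, 187 and 202 CPM in layer 3 and 134, 128 and 127 CPM in layer 4. The layers stood in opposite orders without overlap, and the log2 difference between the cultivars was -1.14 (SE 0.25, adjusted p = 0.9999 by edgeR). Since evm.model.chr5.247 was taken for its small p, those orders add nothing to the test. Its log2 fold change of layer 3 over layer 4 was -0.61 in Supreme and 0.54 in Granny Val, each under 2-fold. Against Alachua 1 gene model (0.0052%) was called, evm.model.chr18.808 on chromosome 18, 958 (4.98%) had an unadjusted p under 0.05, and DESeq2 called 227, 18 with a positive and 209 with a negative difference. Gene model evm.model.chr18.808 had 4.62, 3.08 and 3.59 CPM in layer 3 and 1.31, 2.05 and 2.81 CPM in layer 4 of Supreme, a log2 fold change of 0.87 with an SE of 0.87 (adjusted p = 1 by edgeR). In Alachua it had 4.54 ± 0.690 CPM in layer 3 (SD, n = 3) and 0 counts in layer 4, at least 208-fold higher against a floor of 3 counts over the 3 libraries. In layer 3 the ranges of the cultivars overlapped and in layer 4 they did not. Without the 6 libraries placed nearest another layer, which leaves 1 Alachua layer 4 library, 0 gene models were called. The call also went to 0 without any single library among Alachua layer 3 replicates 1 and 2, Alachua layer 4 replicates 2 and 3 and the 6 Supreme libraries, although the fitted log2 difference stayed between -10.09 and -9.27 over the 20 alternatives run (-9.84 as fitted to all libraries).

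The 6 libraries divided more clearly by another label than by layer. The labels give each library a name, which starts with a number in 25 of the 36 libraries (numbered names) and with letters in 11 (other names). In layer 3 of Supreme replicates 2 and 3 have numbered names, and in layer 4 replicate 1 does. No source used here says what the kinds of name stand for. Exchanging the labels of layer 3 replicate 1 and layer 4 replicate 1 would make layer and kind of name the same division. On principal component 1 of the 6 libraries, which held 40.3% of the variance, the numbered libraries lay at 112.9 and 41.4 in layer 3 and 72.9 in layer 4, and the others at -59.9 in layer 3 and -86.5 and -80.7 in layer 4. The sign of the component gave the kind of name in all 6 libraries and the layer in 4.

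**Figure D3:**
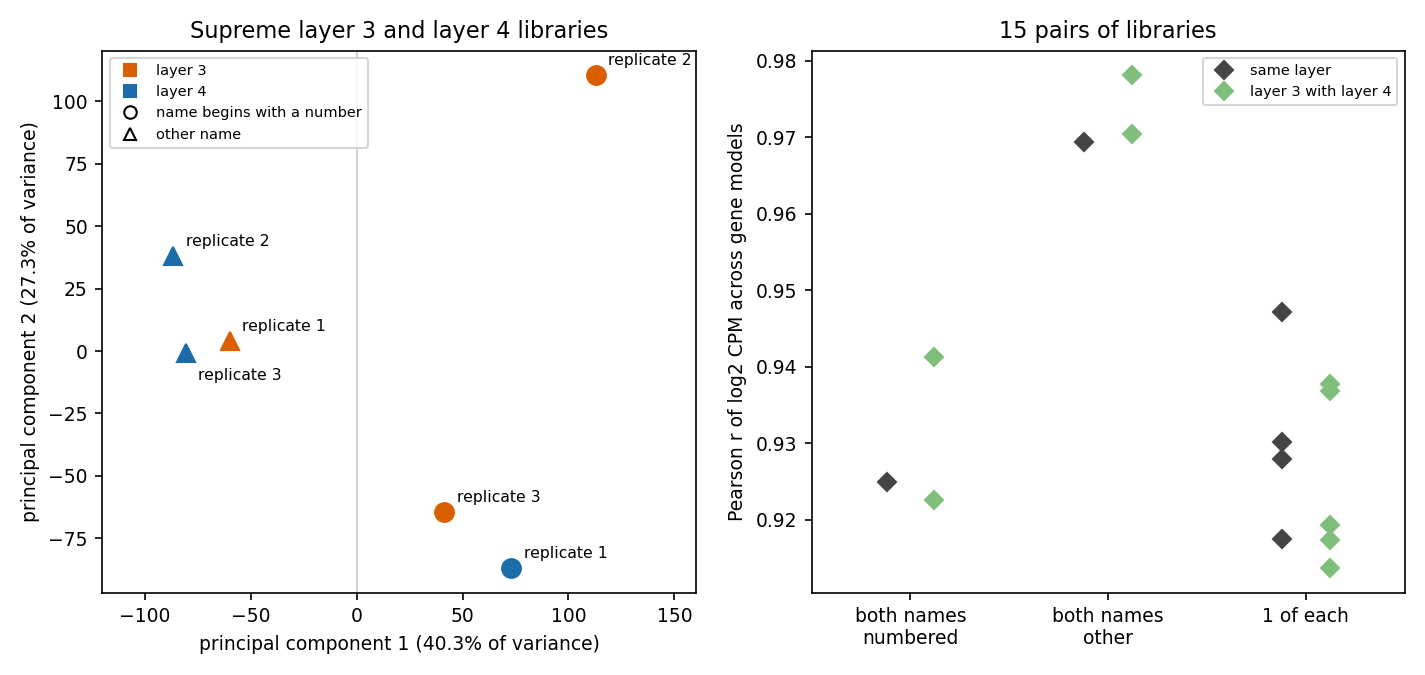
Left, principal components 1 (horizontal, 40.3% of variance) and 2 (vertical, 27.3%) of the 6 libraries, coloured by layer, with circles for names that begin with a number and triangles for the others. Right, Pearson r of log2 CPM across gene models (vertical) for the 15 pairs of libraries by kinds of name (horizontal): pairs of libraries with other names lie at 0.969 to 0.978, above all others, whether they share a layer or not.

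In the correlations of log2 CPM the libraries with other names stood together, and those with numbered names did not. Pairs from the same layer had a median r of 0.929 (6 pairs, 0.917 to 0.969), and pairs of a layer 3 with a layer 4 library had a median of 0.937 (9 pairs, 0.914 to 0.978). The 3 pairs of libraries with other names reached 0.969 to 0.978, against 0.923 to 0.941 for the 3 pairs with numbered names and 0.914 to 0.947 for the 9 mixed pairs. Numbered pairs were no closer than mixed ones, with medians of 0.925 and 0.928. In the correlations with layer means given above, the mean of the own layer rests on 2 libraries and that of the other layer on 3. Correlation with the mean of Supreme layer 2, between 0.864 and 0.888, was lower for all 6.

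Depth and the number of gene models detected moved with the kind of name. The 3 numbered libraries had totals between 45299252 and 46477642 and counts in 15634 to 16817 gene models, and the 3 others had totals between 53475902 and 61782400 and counts in 18994 to 19478. At a common depth of 45299252 counts the expected numbers were 19244, 15633 and 16817 in layer 3 and 16080, 18864 and 18870 in layer 4, and the 3 numbered libraries were again the lowest. Reads outside any gene model took 10.2 to 10.6% in the numbered libraries and 10.0 to 10.4% in the others. Reads that did not align uniquely took 2.65 to 2.76% in the numbered libraries and 2.36 to 2.5% in the others, without overlap. The part of depth and of these reads in the division of expression levels was not tested.

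A comparison of the kinds of name, made after the division was seen, was fitted to the 6 libraries with layer in the same model and 3 residual degrees of freedom. Of 16270 gene models tested 233 (1.43%) were called by edgeR, 185 higher in the numbered libraries and 48 lower, and 3382 (20.8%) had an unadjusted p under 0.05. For layer in the same fit 0 gene models were called and 420 (2.58%) had an unadjusted p under 0.05, with a lowest adjusted p of 0.916. The count for the kind of name rested on single libraries: it was 0 without layer 3 replicate 3 or without layer 4 replicate 1, 5 without layer 3 replicate 1, 31 without layer 3 replicate 2, 123 without layer 4 replicate 2 and 56 without layer 4 replicate 3. The kind of name as a term in the fit of all 36 libraries gave 1012 calls of 19241 (5.26%). Of these, 409 were higher in the numbered libraries and 603 lower, so the balance of directions was the reverse of that in the 6 libraries. The 6 libraries of layers 3 and 4 of Granny Val, which hold 1 numbered library in layer 3 and 2 in layer 4, gave 1 call of 16131 (0.0062%). Of 228 Supreme calls tested there 201 (88.2%) had the same sign, against 64.4% of the 15519 gene models tested in both, and 1 was called in the same direction.

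Higher in the numbered libraries was evm.model.chr7.1100 on chromosome 7, with 48.1, 13.8 and 6.16 CPM in them and 0.324, 0.0158 and 0.0347 CPM in the others (log2 fold change 7.01, adjusted p = 0.0175 by edgeR). Gene model evm.model.chr2.1055 on chromosome 2 had 7.70, 47.2 and 52.5 CPM in the numbered libraries, against 0.817, 0.268 and 0.208 CPM in the others (log2 fold change 6.38, adjusted p = 0.0392 by edgeR). The ranges were far apart in both, and the numbered libraries themselves spread by several fold. Gene models named for this comparison were taken for large changes without overlap, so their separation adds nothing to the test. Lower in the numbered libraries was evm.model.chr16.1891 on chromosome 16, with 9.33 ± 2.11 CPM in them and 74.9 ± 29.4 CPM in the others (SD, n = 3 each; log2 fold change -2.83, adjusted p = 0.0325 by edgeR). Gene model evm.model.chr8.833 on chromosome 8 had 1.47 ± 0.638 CPM in the numbered libraries and 11.9 ± 4.30 CPM in the others (SD, n = 3 each; adjusted p = 0.0458 by edgeR). In Granny Val layers 3 and 4 evm.model.chr7.1100 again lay higher in the numbered libraries, at 7.88, 13.6 and 16.4 CPM against 1.56, 6.68 and 0.650 CPM in the others, whereas the kinds of name overlapped for the other 3. Of these, evm.model.chr16.1891 was low there, at 4.46, 0 and 0 CPM in the numbered libraries and 0.395, 0.170 and 0.0743 CPM in the others.

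The layer difference was then taken within each kind of name. Among the numbered libraries it is the mean of layer 3 replicates 2 and 3 minus layer 4 replicate 1, and among the others layer 3 replicate 1 minus the mean of layer 4 replicates 2 and 3. These differences share no library. Their Pearson correlation across 19241 gene models was 0.029 (Spearman 0.026). Over the 9101 gene models with a mean of at least 10 CPM it was 0.050, with the same sign in 50.6%. Of these 9101, 234 differed by at least 2-fold among the numbered libraries and 468 among the others, 71 in both, of which 42 went in the same direction (24 higher in layer 3 and 18 lower) and 29 in opposite directions. The difference of layer 2 from layers 3 and 4 correlated at 0.810 between Supreme and Granny Val over the same 9101 gene models. That value rests on more libraries on each side and on a contrast with 1537 calls in Supreme and 319 in Granny Val. The correlations are therefore not on equal terms, and 0.050 does not show that the layers share no difference.

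**Figure D4:**
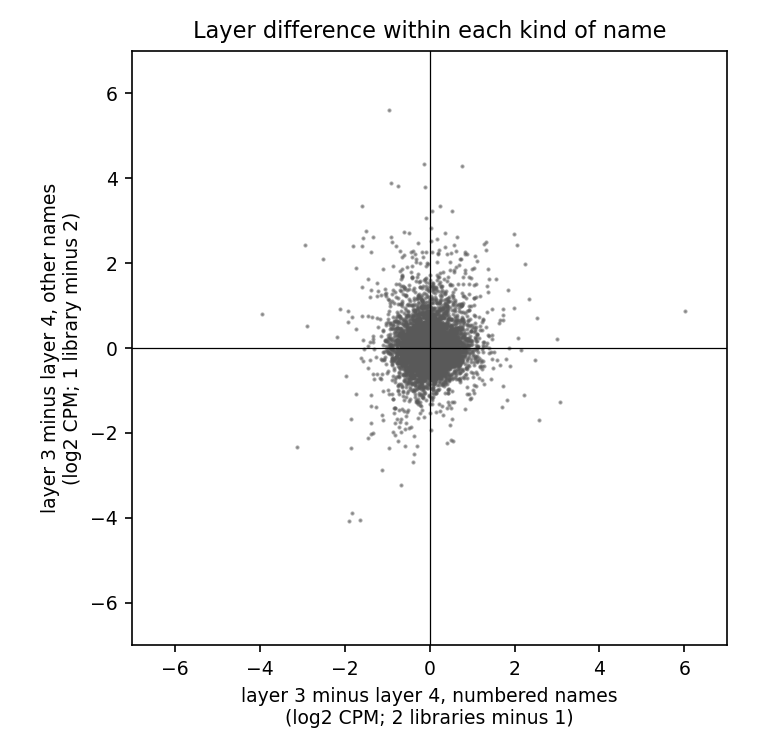
Difference in log2 CPM of layer 3 minus layer 4 in Supreme among the numbered libraries (horizontal) and among the others (vertical), 1 point for each of 9101 gene models with a mean of at least 10 CPM. The points form a cloud around 0 with a Pearson r of 0.050.

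The 4 gene models named for layers 3 and 4 kept their sign within both kinds of name. For evm.model.chr1.698 the log2 difference was 0.78 among the numbered libraries and 1.68 among the others, and for evm.model.chr4.641 it was 1.17 and 0.74. For evm.model.chr19.463 it was -1.39 and -1.76, and for evm.model.chr6.1817 -2.22 and -2.08. They were chosen on all 6 libraries, so this is a description. The number of gene models with an unadjusted p under 0.05 depended on the libraries whose kind of name is the minority in their layer: it was 1095 without layer 4 replicate 1 and 771 without layer 3 replicate 1, against 153 to 202 without any other library. In each of these fits 0 were called. The layer differences of the other libraries correlated at 0.156 with Granny Val and 0.208 with Alachua across gene models, and those of the numbered libraries at 0.022 and 0.016.

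As a measure of what the inner layers share, layer 2 of Supreme, the tissue under the epidermis, was compared with layers 3 and 4 together. There 1537 gene models (7.99%) were called, 1133 higher in layer 2 and 404 lower, and 5008 (26%) had an unadjusted p under 0.05. All 6 Supreme libraries of layers 1 and 2 have numbered names, and with numbered libraries alone 15 were called, 10 of them among the 1537. The fit of numbered libraries alone holds 1 library in layer 4 of Supreme. With the kind of name as a covariate in the fit of all libraries, 1209 were called, 1019 of them among the 1537. That covariate takes the effect of the name to be the same in every group. Layer 2 replicate 1 is among the libraries placed nearest another layer, and 161 gene models were called without it, 153 of them shared. The count was 830 without layer 3 replicate 1, 793 without layer 3 replicate 2, 803 without layer 4 replicate 2 and 761 without layer 4 replicate 3.

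Gene model evm.model.chr18.474 on chromosome 18 had 0 counts in layer 2 and 55.9, 61.3 and 81.6 CPM in layer 3 and 50.5, 28.2 and 65.4 CPM in layer 4, so layer 2 was at least 2490-fold lower against a floor of 3 counts over its 3 libraries (adjusted p = 0.0119 by edgeR). Gene model evm.model.chr19.1497 on chromosome 19 also had 0 counts in layer 2, with 79.4, 44.1 and 46.6 CPM in layer 3 and 36.7, 47.4 and 81.8 CPM in layer 4, at least 2440-fold lower in layer 2 (adjusted p = 0.0123 by edgeR). Both were present in all 6 libraries, and for both the ranges of layers 3 and 4 overlapped. Higher in layer 2 was evm.model.chr16.103 on chromosome 16, with 133, 22.6 and 2.40 CPM there and 4 counts in all over the 6 inner libraries (adjusted p = 0.00255 by edgeR). Gene model evm.model.chr3.1079 on chromosome 3 had 66.2, 0.314 and 0.525 CPM in layer 2 and 1 count over the inner libraries, so its call (adjusted p = 0.00307 by edgeR) rested on layer 2 replicate 1.

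Gene models that set skin apart from flesh in Granny Val were then read in Supreme. In Granny Val 319 gene models (1.66%) were called between layer 2 and layers 3 and 4, 223 higher in layer 2, called skin gene models here, and 96 lower, called flesh gene models. In Supreme 130 of the 223 were called higher in layer 2 and 53 of the 96 lower, against 5.89% and 2.10% of all gene models tested. The mean log2 CPM over the skin gene models was 5.37 ± 0.30 in layer 1, 5.03 ± 0.48 in layer 2, 2.25 ± 0.28 in layer 3 and 2.05 ± 0.11 in layer 4, and that over the flesh gene models was 1.92 ± 0.28, 1.85 ± 0.14, 5.24 ± 0.16 and 4.84 ± 0.33 (SD, n = 3 each). Layers 3 and 4 were both low in skin gene models and high in flesh gene models, and layer 2 was the opposite.

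Between layer 3 and layer 4 of Supreme, the flesh gene models had a median log2 fold change of 0.29, with 71 of 96 (74.0%) higher in layer 3, 0 called and 1 with an unadjusted p under 0.05. The skin gene models had a median of 0.078, with 121 of 223 (54.3%) higher, 0 called and 7 with an unadjusted p under 0.05. Over the 18739 gene models tested that had counts in the 6 libraries the median was -0.030, 47.3% were higher and 1.76% had an unadjusted p under 0.05, against 1.04% of the flesh and 3.14% of the skin gene models. By library, the mean over the flesh gene models was 5.07, 5.27 and 5.38 in layer 3 and 5.18, 4.53 and 4.82 in layer 4, and that over the skin gene models was 2.47, 1.94 and 2.34 in layer 3 and 2.16, 1.95 and 2.03 in layer 4. The layers overlapped for both sets. Within the kinds of name the median for the flesh gene models was 0.14 among the numbered libraries and 0.32 among the others, and leaving out 1 library gave 0.15 (without layer 4 replicate 2) to 0.51 (without layer 4 replicate 1). For the skin gene models the median was 0 among the numbered libraries and 0.24 among the others, and leaving out 1 library gave 0 (without layer 3 replicate 1) to 0.17 (without layer 4 replicate 1).

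**Figure D5:**
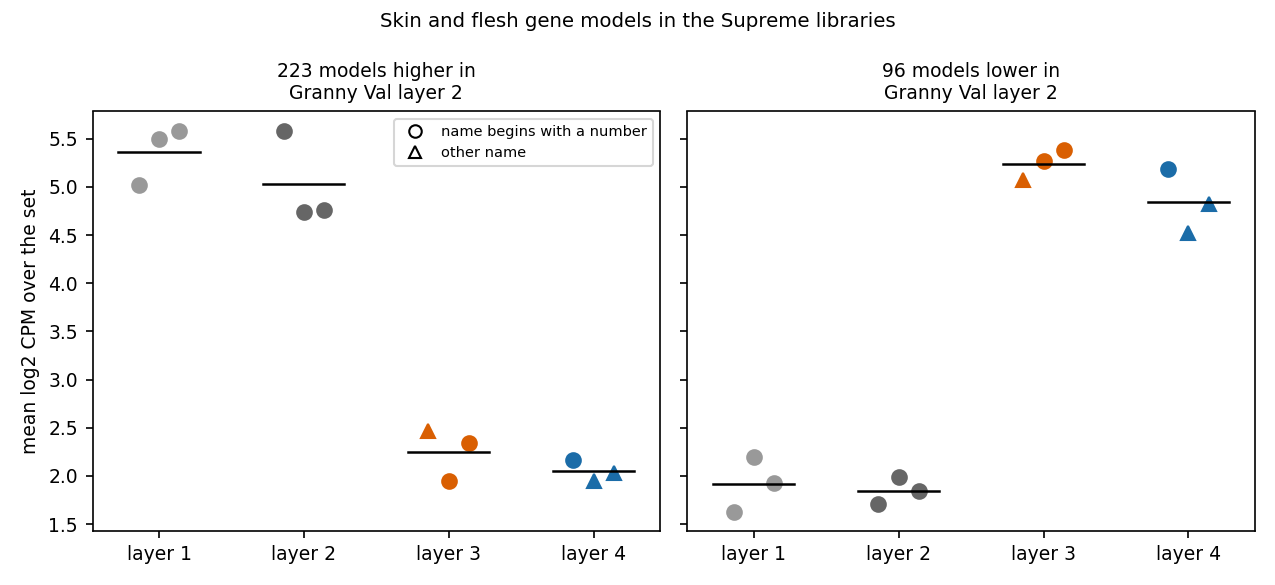
Mean log2 CPM (vertical axis, not starting at 0) over the 223 skin gene models (left) and the 96 flesh gene models (right), chosen in Granny Val, in the Supreme libraries by layer (horizontal axis); points are libraries, with circles for names that begin with a number and triangles for the others, and bars are means. The skin gene models lie above 4.7 in layers 1 and 2 and below 2.5 in layers 3 and 4, the flesh gene models lie the other way round, and layers 3 and 4 overlap in both panels.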

How the data were processed

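RNA was poly(A)-enriched and made into directional libraries, per the labels' protocols. The deposited values are raw counts of reads per gene model; the submitters' processing notes name HTSeq 0.11.2, STAR, cutadapt, SAMtools and DESeq2. No source used here gives the genome build, the annotation or the strand setting. Near-identical or overlapping genes can therefore share or lose reads. Counter lines (no feature, 10.0 to 10.6% in the 6 libraries, ambiguous, 1.15 to 1.36%, not unique, 2.36 to 2.76%) were left out.

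CPM and log2 fold changes were computed with edgeR 4.0.16 (R 4.3.3, TMM, prior count 2 for log2 CPM). After filterByExpr 19241 of 26394 gene models entered 1 fit of 36 libraries in 12 groups (24 residual degrees of freedom). At most 2 gene models higher and 2 lower were named per comparison: called ones with the largest fold change, at least 10 CPM and no overlap, then the smallest adjusted p, then uncalled ones of at least 2-fold and 10 CPM by smallest p. Comparisons, sets and rules were chosen with earlier results of these data known. No 2 libraries were identical (0 pairs). Alternatives were DESeq2 1.42.0, other scalings, filters, samples, covariates and left-out libraries.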

Additional observations from a re-analysis of the deposited data

Results flagged for a closer look

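The layer 3 to layer 4 difference of evm.model.chr18.808 differed between Supreme and Alachua, with a log2 difference between the cultivars of -9.84 (SE 1.64, adjusted p = 0.0458 by edgeR's test of the interaction). In Supreme it had 4.62, 3.08 and 3.59 CPM in layer 3 and 1.31, 2.05 and 2.81 CPM in layer 4. In Alachua it had 5.31, 4.35 and 3.97 CPM in layer 3 and 0 counts in all 3 layer 4 libraries, so the fitted size depends on the prior count and is no bound. Most of those Alachua layer 4 libraries are among the ones placed nearest another layer. The call was lost in 16 of 20 alternatives, over which the adjusted p lay between 6.4e-06 and 1.00 and the log2 difference between -10.09 and -9.27.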

How the results depend on the processing

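No gene model named by the rule changed the sign of its log2 fold change under any alternative run, in the comparison it was named for. These gene models were chosen for large changes or small p, and the alternatives share most libraries, so this is a description. For layers 3 and 4 of Supreme, 0 gene models were called under every alternative except the numbered libraries alone (1), DESeq2 (99) and the fit without replicate 1 of both layers (12), which was added after the data were seen. The 1 lower of these 12 was evm.model.chr6.366, named after its values were seen, with 0 counts in layer 3 replicates 2 and 3 and 6.43 and 1.49 CPM in layer 4 replicates 2 and 3, but 1.44 CPM in layer 3 replicate 1. The 1 among numbered libraries was evm.model.chr1.2450, named after its values were seen, with 1.98 and 1.77 CPM in layer 3 and 0 counts in layer 4 among numbered libraries, but 1.61 and 0.989 CPM in the other layer 4 libraries. The numbered libraries alone gave 287 calls in Granny Val (0 in the report), 0 in Alachua (4 in the report), 140 for Supreme against Granny Val (0), 0 for Supreme against Alachua (1) and 15 for layer 2 of Supreme (1537). These fits hold 1 numbered library in layer 4 of Supreme and 1 in layer 3 of Granny Val, which are assumed to vary like the other groups. DESeq2 gave 118, 540, 122, 227 and 2327 for these, and 1451 for the kind of name (233). The fit that drops the 6 libraries placed nearest another layer gave 0 in Alachua, 0 for Supreme against Alachua and 890 for layer 2. RLE size factors gave 1 in Alachua. No filter on low counts gave 0 for Supreme against Alachua and 372 for the kind of name, which gave 1012 in all 36 libraries. With the kind of name as a covariate there were 2 in Alachua, 0 for Supreme against Alachua and 1209 for layer 2. Leaving out 1 library gave 0 to 0 calls for Supreme, 0 to 2 for Granny Val, 1 to 9 for Alachua, 0 to 0 and 0 to 2 for the differences from Granny Val and Alachua, 161 to 1469 for layer 2 and 0 to 123 for the kind of name.

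Same-numbered replicates of layers 3 and 4 did not deviate together (r of deviations -0.43, 0.0096 and -0.024), but all 3 pairs differ in kind of name. Pairs of a layer 3 and a layer 4 library with the same kind of name gave 0.16 to 0.34. The check therefore cannot tell whether the numbers pair the samples, and the main fit does not pair them. With the replicate number as a block 0 gene models were called for Supreme, 1 for Alachua, 0 for Supreme against Alachua and 597 for layer 2. The other names alone could not be used for layer 2 or Alachua, where too few libraries have them. With 3 libraries a layer, the typical 95% interval at 10 CPM or more reaches 1.62-fold to either side and is wider at lower levels. Smaller differences between the layers could therefore not be resolved. The interval is for a single gene model, without adjustment for the number tested. Larger differences also failed the adjusted test, such as the log2 fold change of -2.52 for evm.model.chr6.1817, so 0 calls do not exclude differences above 1.62-fold.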

Other observations

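In the comparison of cultivars, evm.model.chr10.231 on chromosome 10 was a gene model of the inner layers with 0 counts in layer 4 of Alachua. It had 21.3, 5.64 and 17.1 CPM in layer 3 and 12.8, 4.65 and 33.1 CPM in layer 4 of Supreme, and 83.8, 36.4 and 35.8 CPM in layer 3 and 68.6, 1.36 and 34.7 CPM in layer 4 of Granny Val. In Alachua it had 0, 30.6 and 71.1 CPM in layer 3 and 0 counts in all 3 layer 4 libraries, of which replicates 2 and 3 are among the libraries out of place. In layers 1 and 2 of Supreme it reached at most 0.101 CPM. The difference between Supreme and Alachua did not pass the test (adjusted p = 0.987 by edgeR), but was called by DESeq2 (adjusted p = 0.00502).

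Single libraries stood far apart for evm.model.chr2.525 on chromosome 2. It had 1.71, 0 and 43.9 CPM in layer 3 and 0, 0.236 and 0.0520 CPM in layer 4 of Supreme, whereas it reached 929 CPM in layer 1 replicate 3 and 735 CPM in layer 2 replicate 1. In Granny Val it had 0.247, 0.0510 and 0.0259 CPM in layer 3 and 47.0, 3.12 and 0.538 CPM in layer 4. The difference between the cultivars did not pass the test (adjusted p = 0.9999 by edgeR), but was called by DESeq2 (adjusted p = 7.42e-05).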
